A study of Arabidopsis thaliana with 8 samples.

Results

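The strongest CONSTANS (CO) peaks were the 301 peaks on chromosomes 1 to 5 of Arabidopsis thaliana with a fold enrichment of at least 15 in the filtered peak list of CO-overexpressing seedlings. They made up 9.38% of the 3210 nuclear peaks of that list, which held 3214 peaks in all. They were chosen by fold enrichment, the ratio of immunoprecipitated signal to local background. Fold enrichment, p-value, q-value, fragment number and width all rest on that signal, so these values are given below as descriptions with no test. The summit, the base of highest signal in a peak, places each peak relative to genes.

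CO is a B-box zinc finger protein with a CCT domain that acts with NF-Y proteins on chromatin and activates the florigen gene FT in leaves under long days. Its mRNA is timed by the circadian clock and by repressive CDF proteins, and its protein is broken down by the COP1 and SPA proteins in the dark and kept in the light. Clock proteins such as CCA1, LHY, the RVE family and the PRR family regulate each other's genes in a daily loop, and the series title names the clock as the process that CO alters.

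The plants were 35S:CO seedlings, in which the viral 35S promoter drives CO in most tissues and at high level, and seedlings of the co-10 mutant as the control. In 35S:CO, CO is thus also made in cells and at times in which the native gene is little expressed. Both genotypes were grown in long days and harvested 7 days after germination, and the tissue was crosslinked with 1% formaldehyde for 20 min and 1 mM disuccinimidyl glutarate for 10 min. Each genotype had 2 immunoprecipitates with an anti-CO antibody and 2 inputs without antibody, 8 samples in 4 groups.

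Each genotype had 1 peak list, and the word "both" in the peak names was read as pooled replicates. No value therefore has a replicate check, and peaks of a list share their libraries and are not replicates. The median background under nuclear peaks, recovered from the deposited fold and p-value, was 3.07 fragments in 35S:CO and 1.09 in co-10. Intervals of shares below are Wilson 95% intervals over peaks. They cover the counting of peaks only and no spread between replicates, for which there are no values. The libraries were also made by PCR, and the labels mention no molecular identifiers.

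Fold enrichment ran from 15.01 to 62.3 among the strongest peaks, with a median of 20.8 (interquartile range 17.6 to 26.7). The other 2909 filtered peaks had a median of 5.08 and began at 2.33. The strongest peaks thinned out quickly towards the top: 161 reached a fold of 20, 53 reached 30, 20 reached 40, 8 reached 50 and 2 reached 60. Their deposited −log10 q-values ran from 44.3 to 426.0, with a median of 89.8, against a median of 8.41 and a maximum of 69.4 among the other filtered peaks.

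**Figure D1:**
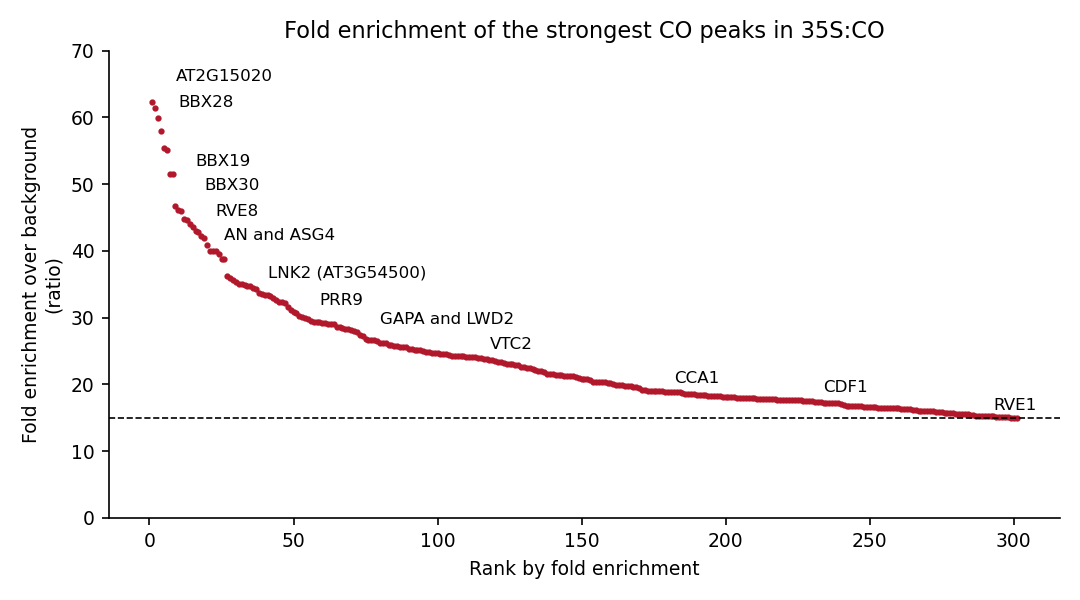
Fold enrichment over background (ratio, y axis) of the 301 strongest CO peaks of 35S:CO against rank (x axis), 1 point per peak, with genes named at some of them and a dashed line at 15. The values drop steeply over the first 25 or so peaks and then flatten, so that CCA1 (19.0) and RVE1 (15.02) sit far below BBX28 (61.3) and RVE8 (43.6).

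The highest fold, 62.3, belonged to a peak on chromosome 2 from 6491705 to 6494847, beside AT2G15020, a gene the annotation leaves without a symbol. The peak of rank 2, at 61.3, was beside BBX28, which encodes a small B-box protein. B-box genes were also next to the peak of rank 8 at BBX19 (51.5) and that of rank 11 at BBX30 (46.0). ELIP1, which encodes a chlorophyll-binding protein induced by strong light, was at rank 10 with 46.2.

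Other named genes in the top 25 came from many processes. ABCF5, an ABC-type ATPase gene, had a fold of 46.8. CIPK20, a kinase gene, held a summit of 44.8 that also lay within 1000 bp of DOG1, the seed dormancy gene. ARF8, an auxin response factor gene, held a summit of 44.0, and RVE8, a clock activator gene, held one of 43.6. AGL44, a MADS-box gene known from the root response to nitrate, was next to a summit of 43.0. A summit of 42.2 lay in both AN, a gene of leaf cell shape, and ASG4, which is RVE3 of the clock list. PHT2;1, a plastid phosphate transporter gene, held one of 41.9.

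The rest of the top 25 comprised CYP71B11, a cytochrome P450 gene (39.98), SQP1, a gene of the squalene epoxidase family (39.9), and RLP49, classed as a transcribed pseudogene (38.9). It also included genes known here by identifier only: AT1G19490 with AT1G19500 (55.1), AT1G26790 (44.6), AT3G50560 (40.8), AT5G42760 (39.9) and AT1G05870 (39.6). Some summits of named genes were also within 1000 bp of a neighbour, AT4G38950 at BBX19, AT3G22845 at ELIP1 and AT3G09590 at RVE8. The remaining peaks of the top 25, at ranks 3, 4, 5, 7 and 17, had no protein-coding gene within 1000 bp and are described further on.

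The strongest peaks were wide. Their median width was 897 bp (interquartile range 714 to 1179, from 530 to 3143), against 449 bp in the other filtered peaks (297 to 2537) and 388 bp in nuclear co-10 peaks. A width above 1000 bp was found in 127 of the 301 strongest peaks and in 122 of the 2909 others, and a width above 2000 bp in 17 and 3. Wider peaks had higher folds within the 301 as well (Spearman's rho 0.456 over 301 peaks of the same libraries, a description, since a peak caller extends a peak as far as its signal reaches). Divided by fold into groups of 76, 75, 75 and 75 peaks, the group of highest fold had a median width of 1126.5 bp, and the following ones had 936, 859 and 722 bp.

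**Figure D2:**
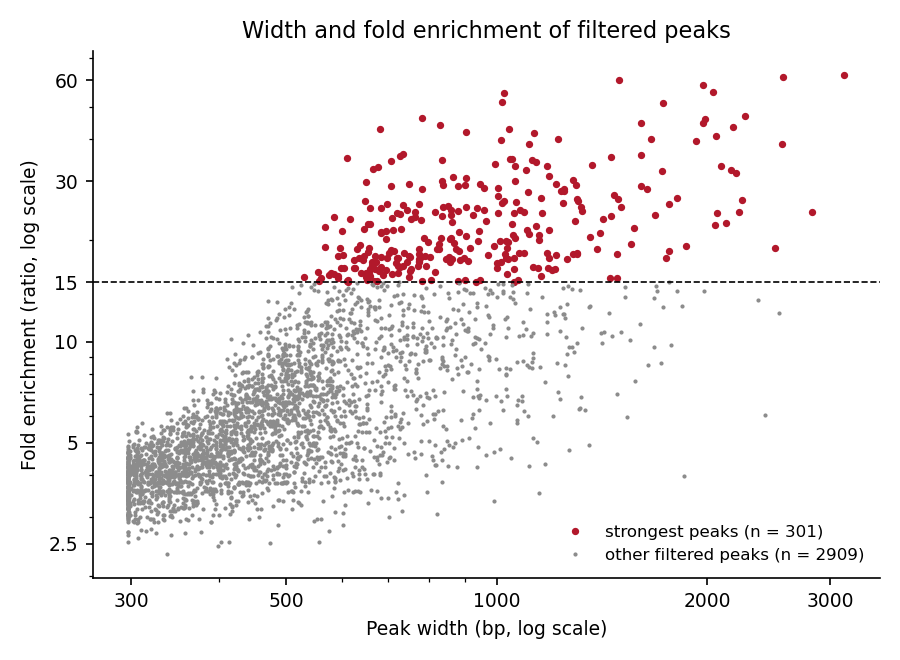
Fold enrichment (ratio, log scale, y axis) against width (bp, log scale, x axis) for the 301 strongest peaks in red and the 2909 other filtered peaks in grey, 1 point per peak, with the limit of 15 dashed. No strongest peak is narrower than 530 bp, and 17 of them exceed 2000 bp.

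The 5 widest were those at AT2G15020 (3143 bp), in APR2 (2828 bp, fold 24.2), at BBX28 (2573 bp), at UGP2 (2558 bp, fold 38.8) and in RBCS1A (2503 bp, fold 19.0). APR2 encodes an enzyme of sulfate reduction, UGP2 an enzyme that makes UDP-glucose and RBCS1A the small subunit of Rubisco. RBCS1A and APR2 thus stood among the widest with folds near the median of the set. The narrowest peak, 530 bp on chromosome 5 from 8923250 to 8923779, had no gene within 1000 bp and a fold of 15.5. Next to it in width came a peak at AT1G69480 and AT1G69485 (554 bp), peaks in PLP5, a patatin-like lipase gene (556 bp), and PHR1, a DNA photolyase gene (560 bp), and one with no gene in reach on chromosome 2 from 19051820 to 19052386 (567 bp).

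Under the summits the recovered pileup, the number of fragments over a base, had a median of 87 and ran from 49 to 306. The other filtered peaks had a median of 20 and reached 84. The background did not follow this difference: its median was 3.01 fragments under the strongest peaks (2.13 to 5.07) and 3.09 under the others. The highest pileup, 306, was that of the rank 5 peak. Its summit lay inside or within 1000 bp of AT5G03755, a gene for a long non-coding RNA. Summits lay near the middle of the peaks, at a median of 49.9% of the width, against 49.7% in the other filtered peaks.

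Chromosomes 1 to 5 carried 83, 45, 57, 43 and 73 strongest peaks. These are 27.6%, 14.95%, 18.9%, 14.3% and 24.3% of the set, beside 27.4%, 17.0%, 18.8%, 15.1% and 21.7% of the other filtered peaks and 26.1%, 15.7%, 19.9%, 15.2% and 23.1% of protein-coding genes. The strongest peaks made up between 8.33% of the filtered peaks, on chromosome 2, and 10.4%, on chromosome 5. Median fold was highest on chromosome 3 (23.9) and lowest on chromosome 4 (19.1). Around a strongest summit, 50000 bp to either side held a median of 28 protein-coding genes, against 27 around the other filtered summits and 8 around co-10 summits.

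Neighbouring strongest summits were a median of 249972.5 bp apart (interquartile range 86831.25 to 488443 bp over 296 neighbouring pairs). The widest gap was 5753378 bp and the narrowest 914 bp. In 19 pairs the summits were at most 10000 bp apart, and no group of 3 or more occurred, so 38 of the 301 peaks had a strong neighbour. In 8 of these pairs less than 1000 bp separated the edges of the peaks. A further filtered summit of any strength lay within 5000 bp in 151 of the strongest peaks, 50.2% (44.6 to 55.8), and in 1263 of the others, 43.4% (41.6 to 45.2).

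Some of these pairs were at B-box or CDF genes, while most were at neither. They were picked out after the pairs had been seen, so this is a description only. At BBX28 the peak of 61.3 was 166 bp from one of 17.3, and both summits lay within 1000 bp of the gene. At BBX31 the peak within 1000 bp of the gene had a fold of 25.6, and 104 bp beyond its edge began the peak of rank 4, chromosome 3 from 7711030 to 7713004, with 58.0. At BBX29 a peak of 26.6 had a neighbour of 15.98 at an edge distance of 294 bp and a summit distance of 914 bp, the closest summits of all. CDF3 had 2 strongest summits, 28.7 outside and 21.3 inside the gene. At CDF2 the peak within 1000 bp of the gene reached 15.2, while its neighbour of 29.8, 289 bp away, lay farther from the gene.

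The other close pairs were in AT3G50560 and beside it (40.8 and 31.7), at AT5G03755 (55.5 and 17.9), at UGP2 and RVE1 (38.8 and 15.02) and at PAB3 and GI (18.3 and 15.2). PAB3 encodes a poly(A)-binding protein, and GI is the clock gene GIGANTEA. LBD37, a nitrogen-responsive regulator gene, held both peaks of a pair (18.8 and 17.2) whose edges were 1154 bp apart. BBX28, CDF3, AT3G50560 and LBD37 were the 4 protein-coding genes with 2 strongest summits inside or within 1000 bp. The CBF2 and CBF1 peaks (23.1 and 15.1) and those at CYP71B11 and CYP71B12 (39.98 and 18.2) joined neighbouring genes of a family. Reads can be shared between similar copies in such families, which was not examined here, so their separate values are uncertain.

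**Figure D3:**
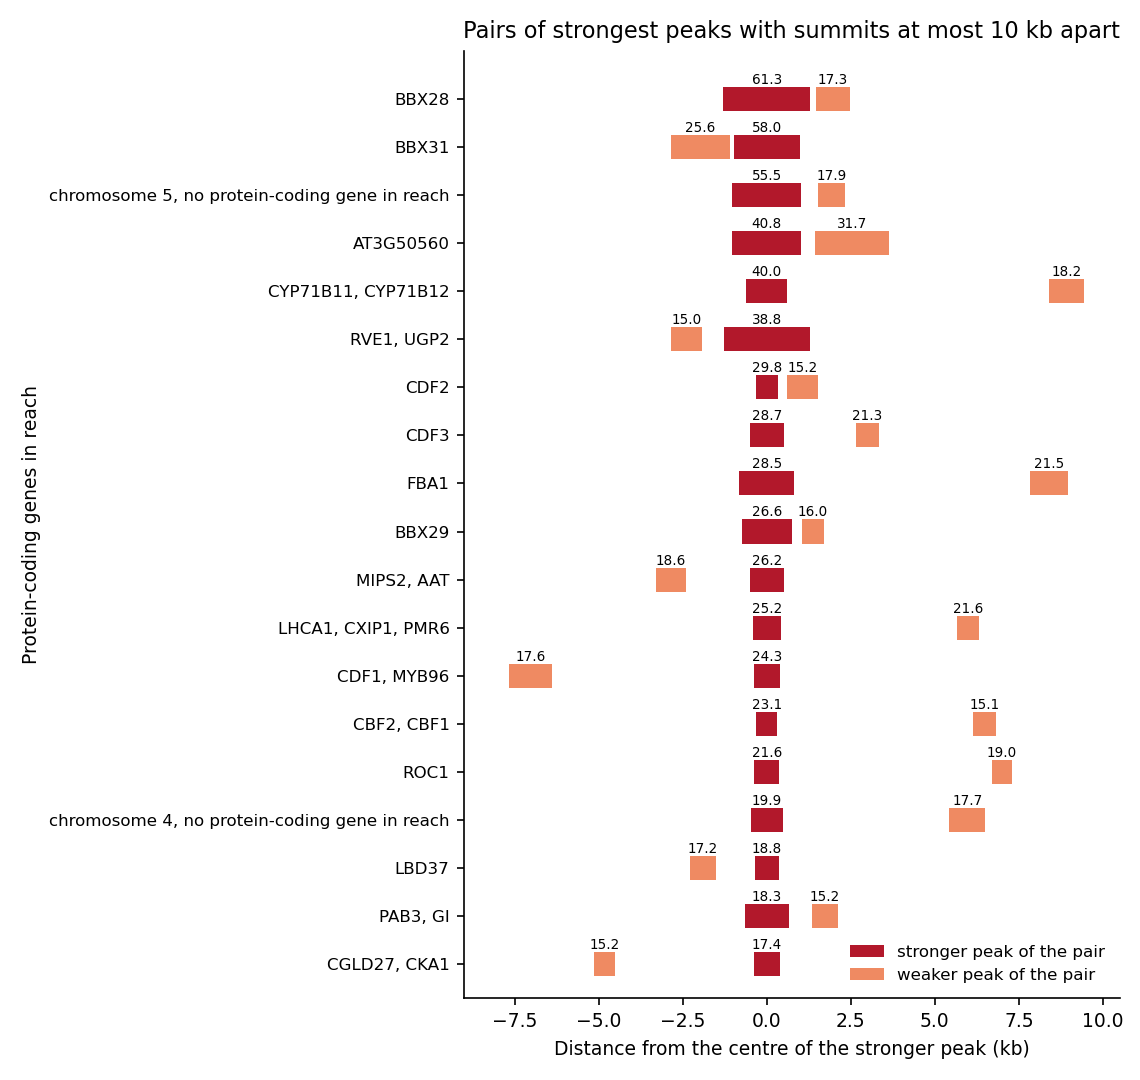
The 19 pairs of strongest peaks with summits at most 10000 bp apart, 1 pair per line, drawn to scale as bars from peak start to peak end along the distance from the centre of the stronger peak (kb), with fold enrichment above each bar. The pairs at BBX28, BBX31, BBX29 and CDF2 nearly touch, while those at CYP71B11 and FBA1 are more than 7 kb apart.

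Relative to genes, 106 of the 301 strongest summits lay inside a protein-coding gene, 35.2% (30.04 to 40.8), against 38.5% (36.7 to 40.2) of the other filtered summits and 17.6% (13.8 to 22.2) of the co-10 summits. Outside genes but within 1000 bp of one were 134, or 44.5% (39.0 to 50.2), against 37.2% (35.5 to 39.0) and 8.65% (6.02 to 12.3). Farther away were 61, or 20.3% (16.1 to 25.2), against 24.3% and 73.7%. More than 2000 bp from any protein-coding gene were 20 strongest summits, 6.64% (4.34 to 10.0), and 13.1% (12.0 to 14.4) of the others. The differences between the strongest and the other filtered peaks were not tested, as peaks of a list are not replicates. Moved by 5000 bp along the chromosome, 67.1% and 61.8% of the strongest summits would lie in genes, depending on the direction.

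**Figure D4:**
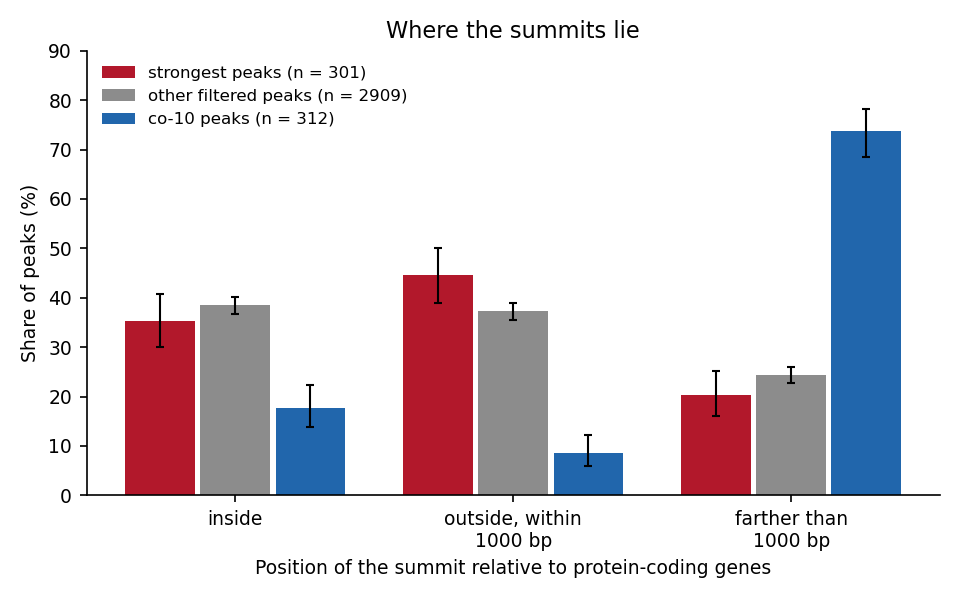
Share of summits (%, y axis) inside a protein-coding gene, outside but within 1000 bp, and farther away, for the 301 strongest peaks in red, the 2909 other filtered peaks in grey and the 312 nuclear co-10 peaks in blue, with Wilson 95% intervals. The strongest peaks have their highest share in the flanks (44.5%), and the co-10 peaks have theirs far from genes (73.7%).

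Of the strongest peaks, 145 had 1 protein-coding gene within reach, meaning a summit inside the gene or within 1000 bp, 87 had 2, 7 had 3 and 1 had 4. For the last 95 the gene cannot be chosen from position alone. Genes for long non-coding RNAs were in reach of 43 strongest peaks, and 16 summits lay inside one, 5.32% against 3.58% of the other filtered summits. The only miRNA gene in reach was MIR163, whose peak had a fold of 35.9 and was also near LIG6, a DNA ligase gene.

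Of the 61 strongest peaks without a protein-coding gene in reach, 48 had no annotated gene of any kind there. The protein-coding genes on either side of them were looked up after the peaks had been seen. In 8 of the 61 cases one of these was a gene of the lists described next. No share for the other filtered peaks stands beside this count, so it is a description only. The peak of rank 5 (55.5) and its neighbour of 17.9 lay beside PRR5, a clock repressor gene, with the first summit within 2000 bp of it and the second within 5000 bp. A peak of 34.3 lay within 5000 bp of RVE2 on one side and of AT5G37270 on the other. One of 28.5 lay within 5000 bp of BBX18, but AT2G21300 on its other side was nearer, within 2000 bp. A peak of 18.9 lay within 2000 bp of both BBX16 and AT1G73860. Position alone does not assign these peaks to the listed genes. The other 3 were the second peaks at BBX31, BBX29 and CDF2 given above.

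The peak of rank 3, on chromosome 4 from 2595010 to 2596508 with 59.9, had AT4G05071 within 2000 bp on one side and its next gene more than 5000 bp away on the other. That of rank 7, on chromosome 5 from 14124198 to 14125214 with 51.6, lay between AT5G35970 and YAK1, a kinase gene. That of rank 17, on chromosome 3 from 19257371 to 19258050 with 42.9, lay between SULTR3;1, a sulfate transporter gene, and HSFA7A, a heat shock factor gene, and was within 2000 bp of SULTR3;1. Only 4 strongest summits, with folds of 26.2, 24.6, 18.4 and 15.5, were more than 5000 bp from any protein-coding gene. The second of these stood between AT1G37113 and NIA2, a nitrate reductase gene, and the fourth stood between RD22, a drought-response gene, and YUC6, an auxin synthesis gene.

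In all, 340 of 27432 protein-coding genes (1.24%) had a strongest summit inside or within 1000 bp, and 3076 (11.2%) had a filtered summit of any strength. Against these shares, 36 of 166 genes (21.7%) in 7 lists of clock, B-box, flowering, light signalling, light stress and cold, flavonoid and photosynthesis genes had a strongest summit. The lists were drawn up with earlier results of these data known, so their counts are descriptions. Among the 36 genes the strongest summit lay inside the gene in 13 and outside it in 23. In 19 of the 36 another protein-coding gene was in reach of the same summit. A further 67 listed genes had weaker filtered summits only, and 63 had none.

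**Figure D5:**
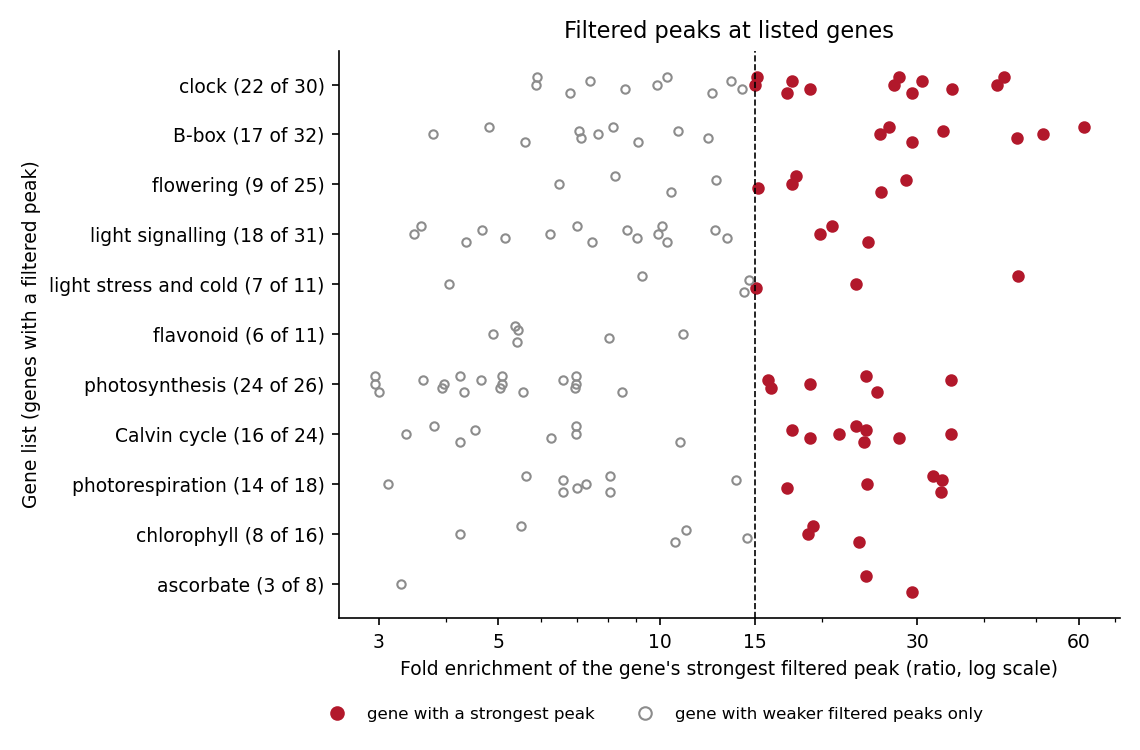
Fold enrichment of the strongest filtered peak of each listed gene (ratio, log scale, x axis), 1 row per gene list. Each point is a gene with a filtered peak, filled red where it reaches the dashed limit of 15 and open grey below it. The Calvin cycle, photorespiration, chlorophyll and ascorbate rows are lists added after the peaks had been seen. RCA and the RBCS genes stand in both the photosynthesis and the Calvin cycle rows. Row names give how many genes of the list have any filtered peak; the clock, B-box and light stress and cold rows extend past 40, and the flavonoid row has no point beyond the limit.

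Of 30 clock genes, 12 (40%) had a strongest summit, the highest share of the 7 lists, with a median fold of 27.5 at their strongest peaks. Among the RVE genes, which encode MYB-like proteins related to CCA1, RVE8 (43.6, pileup 217) and RVE3 (42.2, pileup 210) were highest, followed by RVE4, named LCL1 in the annotation (27.2), and RVE1 (15.02). The morning repressor genes LHY (29.4, pileup 131) and CCA1 (19.0, pileup 81) each had a single filtered peak, outside the gene. PRR9, the first-acting PRR repressor gene of the day, had 30.6. LNK2 (34.9) and LNK3 (17.2), identified as AT3G54500 and AT3G12320, encode coactivators that work with RVE proteins. LWD2 (27.8) and LWD1 (17.6) encode WD-repeat clock activators, and GI had 15.2.

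Another 10 clock genes had weaker filtered peaks only. RVE7 (14.2), LNK4 (13.5) and RVE2 (12.5) were close to the limit, RVE5 (10.3) and LNK1 (7.42) lower. ELF4 had 9.89, LUX 8.60, TOC1 6.81, ZTL 5.91 and RVE6 5.88. The remaining 8 clock genes, PRR5 among them, had no filtered summit within 1000 bp. The clock assignments were shared in 11 of 12 cases, since another protein-coding gene was in reach of the same summit. Only the GI summit had none. The RVE3 summit was also inside AN and the LWD2 summit inside GAPA, while the LWD1 summit had GAPA-2, the LHY summit UMAMIT28, the CCA1 summit PSI-P and the LNK3 summit BUG22 in reach. The neighbours at RVE8, RVE4, RVE1, PRR9 and LNK2 are known here by identifier only.

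Of 32 B-box genes, 7 (21.9%) had a strongest summit, with a median fold of 33.6, the highest of the fixed lists. They were BBX28 (61.3), BBX19 (51.5), BBX30 (46.0), BBX32 (33.6), BBX25 (29.3), BBX29 (26.6) and BBX31 (25.6). The BBX25 summit was inside the neighbouring gene AT2G31370, and BBX19 and BBX32 also had another gene in reach. BBX19, BBX28, BBX30 and BBX31 encode proteins known to bind CO and delay flowering, the last 2 as microproteins with a single B-box. BBX25 and BBX32 encode inhibitors of light-driven seedling development. All the genes from BBX28 to BBX32, which encode proteins with a single B-box and no CCT domain, were included, while BBX26 and BBX27 of the same group had no filtered summit. Of the genes most like CO, none had a strongest summit: BBX3 had 9.09 and BBX2 had 8.18. The next highest values were 12.2 at BBX24 and 10.8 at BBX16. Within the reach of 1000 bp, a gap thus separated the 7 from the other 10 with a filtered peak, and 15 had none. That gap depends on the reach. With 2000 bp, 9 B-box genes had a strongest summit, beside 1.76% of all protein-coding genes. The peak of 18.9 within 2000 bp of BBX16 then counts for that gene, with AT1G73860 also in that reach.

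Of 25 flowering genes, 5 (20.0%) had a strongest summit, with a median fold of 17.8. Among them were CDF3 (28.7), CDF5 (25.7), CDF1 (17.6) and CDF2 (15.2), which encode DOF proteins that repress CO and FT. The fifth was SNZ (17.8), a floral repressor gene of the AP2 family. SOC1, a gene that integrates flowering signals, had 12.7, and FT, which CO activates, had 10.47, both below the limit. SVP (8.24) and FUL (6.49) followed, and 16 genes of the list had no filtered summit.

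Of 31 light signalling genes, 3 (9.68%) had a strongest summit. SPA3 (24.3, inside the gene) and SPA1 (20.9) encode partners of COP1, and PIF7 (19.8, inside the gene) encodes a growth-promoting bHLH factor of shade responses. Weaker filtered peaks were found at 15 genes of the list, from 3.49 at RUP2 to 13.3 at PIF8. COP1 itself had 6.99 and HY5, the main activator gene of seedling light responses, had 5.16.

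Of 11 light stress and cold genes, 3 (27.3%) had a strongest summit: ELIP1 (46.2), CBF2 (23.1) and CBF1 (15.1). The CBF genes encode activators of cold-response genes. The third copy of that cluster, CBF3, reached 14.6, and the cold-response gene KIN1 reached 14.3, both just under the limit. ELIP2, a close relative of ELIP1, had 9.27. None of 11 flavonoid genes had a strongest summit, while 6 had a weaker one, the highest at MYB12 (11.04), an activator gene of flavonol synthesis.

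Of 26 genes for light-harvesting proteins, the Rubisco small subunit and Rubisco activase, 6 (23.1%) had a strongest summit. RCA, the Rubisco activase gene, had 34.7 from a pileup of 163, with the summit inside the gene. LHCA1 had 25.2, RBCS3B 24.1, RBCS1A 19.0, LHCB2.1 16.05 and LHCB1.1 15.8. Nearly all the rest had a weaker filtered peak, 18 genes from 2.95 to 8.48, and only 2 had none. A filtered peak was therefore common in this list, and most of these peaks were far below 15. The LHCB1, LHCB2 and RBCS copies are near-identical, so the division of reads among them is uncertain.

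Wider lists for photosynthetic metabolism were added after the peaks had been seen. Of 24 Calvin cycle genes, 8 (33.3%) had a strongest summit, 7 of them inside the gene. RCA, RBCS1A and RBCS3B among them were already counted in the photosynthesis list. The others were GAPA (27.8), SBPASE (23.9), GAPB (23.1), FBA1 (21.5) and GAPA-2 (17.6). For 4 of the 8, GAPA, SBPASE, GAPB and GAPA-2, another protein-coding gene was in reach of the same summit. The GAPA and GAPA-2 summits are those counted above for LWD2 and LWD1. Of 18 photorespiration genes, 5 (27.8%) had a strongest summit: GGT1 (33.4), CAT2 (33.2), GLDP1 (32.2), GLDP2 (24.2) and AOAT2 (17.2). Another protein-coding gene was in reach at 2 of these, GLDP1 and AOAT2. CAT2 encodes the leaf peroxisomal catalase, GGT1 and AOAT2 encode aminotransferases and the GLDP genes encode a subunit of glycine decarboxylase. Of 16 chlorophyll genes, 3 (18.8%) had a strongest summit: GUN5 (23.4), CRD1 (19.2) and CH1 (18.8), each with another protein-coding gene in reach. The CRD1 summit was inside that other gene, AT3G56930. Of 8 ascorbate genes, 2 (25%) had a strongest summit: GME (29.4) and VTC2 (24.1), which act in the mannose and galactose route to ascorbate.

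Over the 7 fixed lists, the share of genes with a strongest peak among genes with any filtered peak was 36 of 103, against 11.1% of all 3076 genes with a filtered summit. Clock genes had 12 of 22, B-box genes 7 of 17, flowering genes 5 of 9, light signalling genes 3 of 18, light stress and cold genes 3 of 7, flavonoid genes 0 of 6 and photosynthesis genes 6 of 24.

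None of the 301 strongest peaks overlapped a co-10 peak, which the filter fixes, since no filtered peak does. None lay within 1000 bp of one either. The nearest co-10 peak was 7587 bp from a summit, that of the peak at AT1G35560 on chromosome 1 (fold 25.9), and the median distance was 768457 bp, against 656414 bp for the other filtered peaks. Within 100000 bp of a co-10 peak were 26 strongest summits (8.64%), against 465 of the others (15.98%), and within 10000 bp 1 (0.332%), against 119 (4.09%). These distances leave little room for a co-10 summit inside or within 1000 bp of a gene with a strongest summit. No listed gene had both, which is therefore no further result.

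On chromosomes 1 to 5, the 35S:CO list before filtering held 3287 peaks. Peaks called in the mutant touched 77 of these, or 2.34%, by at least 1 bp. Before filtering, 302 nuclear 35S:CO peaks had a fold of at least 15. The filter removed 1 of them, the peak at CO itself on chromosome 5 from 5171186 to 5173112, with a fold of 15.3, a pileup of 108 and a background of 6.14. In co-10 the peak there ran from 5171197 to 5172836 and had a fold of 63.9, a pileup of 155 and a background of 1.44. It was the only nuclear co-10 peak at or above 15, and the next one had 9.13. The antibody signal at CO was thus present in the mutant, and its source was not tested.

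The background under the strongest peaks had a median of 3.01 fragments and an interquartile range of 2.77 to 3.57, against a lower median of 1.09 and a wider range of 0.879 to 4.91 under nuclear co-10 peaks. These values come from different regions, and read totals were not used here, so the depth of the libraries and its part in the absence of the peaks from co-10 were not tested. The efficiency of the immunoprecipitation in each genotype cannot be told apart from the genotype.

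At the limit itself the values were continuous. The 5 peaks just inside lay in CBF1 (15.1), in PLP5 (15.1), at AT1G53870 and AT1G53875 (15.03), at RVE1 and AT5G17305 (15.02) and at CAS1, a sterol synthesis gene (15.01). The 5 just outside lay at AT3G51140 (14.996), at AT1G04570 (14.996), at AT1G29430, AT1G29435 and SAUR63 (14.98), at SNRK2-8, a stress kinase gene (14.9), and at AT3G06145 and AT3G06150 (14.9).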

How the data were processed

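Chromatin immunoprecipitation with sequencing was carried out on seedlings. FastQC, Bowtie, MACS2 and deepTools and the genome build TAIR10 are named in the submitters' processing notes. Their parameters, the thresholds and the filter are not given in the sources used here, and read totals per sample cannot be had from peak lists. The fold enrichment of each peak is a ratio deposited by the authors, as are its −log10 p-value and −log10 q-value. The deposited summit offset was added to the peak start, and coordinates are counted from 1.

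From these, whole-number pileups up to 4999 were sought that matched the deposited −log10 p-value within 0.001 under a Poisson tail, with 1 added to pileup and background in the fold enrichment. This solved 301 of 301 strongest peaks, 3287 of 3287 nuclear 35S:CO peaks and 311 of 312 nuclear co-10 peaks, and was tested on simulated data. Overlap meant at least 1 bp.

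Gene names came from a RefSeq table of assembly TAIR10.1, which has no strand. As the peaks use TAIR10, no gene coordinates are given. Of all nuclear filtered summits, 38.2% lay in protein-coding genes, against 59.1% and 58.7% when moved by 5000 bp, a drop at the true position that bears on the fit of both builds. A gene was in reach when a summit lay in it or within 1000 bp. Genes were named at the 25 peaks of highest fold, in the 7 lists, at the 5 peaks on each side of the limit and at the 5 widest and narrowest peaks. Genes named beyond that rule were chosen after their values were seen. The members and the lists were chosen with earlier results of these data known. No test was made, since the peaks were chosen by their values and the lists pool replicates. Alternatives covered the fold limit, the flank, the distance between neighbours, the summit and the co-10 list. The planned search for motifs was not run, since no sequence was used here. Python 3.11.15, numpy 2.4.6, pandas 2.3.3, scipy 1.17.1 and matplotlib 3.10.9 were used.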

Additional observations from a re-analysis of the deposited data

How the results depend on the processing

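No paired analysis was possible because the replicates of a genotype were pooled into 1 list, without values for each of them. Leaving out replicates was not possible for the same reason, and the motif search was not run. Of 48 alternatives, 35 kept the reported value. For a share this meant within its counting interval, and for a count or a median width within 1.5 times. Some of the 35 could not have moved. The filter fixes the overlap with co-10 peaks of −log10 q of at least 5, and the flavonoid count of 0 cannot change at a limit of 20 or a flank of 500 bp. By construction, a fold limit of 10 gave 622 peaks and a limit of 20 gave 161. The limit of 20 left 23 listed genes with a strongest summit (0.696% of all protein-coding genes), with 7 clock, 2 flowering and 3 photosynthesis genes, while the 7 B-box genes all passed it. The limit of 10 (2.57% of all genes) gave 7 light signalling, 5 light stress and cold and 1 flavonoid gene. The flank share was 31.9% for 500 bp and 58.1% for 2000 bp, and 12 pairs were at most 5000 bp apart. The unfiltered list had 1 strongest peak that overlapped co-10, at CO. Median width was 782.5 bp at a limit of 10 and 1045 bp at 20, alternatives chosen after seeing the data. What limits these results is that peaks have no replicate spread, that a summit within reach of several genes cannot be given to one, and that position says nothing on transcription. Read totals were not used here, so how depth bears on absence from co-10 was not tested.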

Other observations

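Other strongest peaks had named genes of further processes in reach. They were picked from the 301 after their values were seen, so no share of any process is given. Genes for the making and use of sugars included INVH, a neutral invertase gene (33.01, on a summit shared with AT3G05830), PHS2, an alpha-glucan phosphorylase gene (24.2), TPS1, a gene of trehalose 6-phosphate synthesis (21.5), and ATSPS4F, a gene of sucrose phosphate synthase (20.2). Genes of nitrogen and sulfur supply included AGL44 and LBD37 given above, APR2 (24.2) and SIRB, a gene of siroheme synthesis (25.3), whose summit was inside the neighbouring AT1G50180. PHT2;1 (41.9) and PHT4;3 (24.2), genes of phosphate transporters, each had a strongest summit in reach, PHT4;3 on a summit inside PHS2. FRO2, a gene of iron reduction at the root surface, held a summit of 17.7.

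Genes of pigments, quinones and photosystem assembly also had strongest summits. ABA1, a zeaxanthin epoxidase gene of the xanthophyll cycle and of abscisic acid synthesis, held one of 30.1, which was also near AT5G67040. SPS2, a gene of solanesyl diphosphate synthesis, held one of 24.99, also near SHA, and G-TMT, a gene of tocopherol synthesis, had one of 17.6. HCF173 (20.4, on a summit shared with other genes) and HCF244 (17.96, on a summit shared with IDH1) encode proteins needed to make the D1 protein of photosystem II. OHP, a gene of a one-helix protein of that assembly, had 16.05 on a summit shared with other genes. Regulator genes included TZP, a light-responsive growth regulator gene (24.7), and MYB96, a drought-response regulator gene (24.3, on a summit shared with AT5G62460). Further ones were KAN2, a leaf polarity gene (23.7), WRKY57 (17.7), NF-YA4, a gene of the NF-Y family (18.02), and GNC, a GATA factor gene of greening (15.7). Each of these values is the fold of a single pooled peak, and expression of the genes was not measured in this series.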
